A study of Mus musculus with 6 samples.

Results

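The IL-6 family is examined here through 8 of the 19069 genes listed for cells sorted from mouse colon tumors: the cytokines *Il6*, *Il11* and *Lif*, the receptor genes *Il6st*, *Osmr* and *Il11ra1*, the transcription factor *Stat3* and the feedback inhibitor *Socs3*. The 8 genes were chosen by name, with earlier results of these data known, and each was found as 1 row in the table of every plate. Tumors were induced with azoxymethane (AOM), a mutagen, and dextran sulfate sodium (DSS), which injures the colon lining, and were dissociated. Viable cells without EPCAM, CD45 and CD31 on their surface, called CAFs (cancer-associated fibroblasts) in the labels, were index-sorted into 384-well plates and sequenced by SORT-seq, which tags the transcripts of each well with a well barcode and a molecular identifier. The 6 plates shared 1 set of 384 well barcodes. There were 3 plates of each genotype. Zeb1Fib-Ctrl plates (1, 3 and 4) came from mice negative for the Col6a1Cre transgene, and Zeb1Fib-deleted plates (2, 5 and 6) came from mice positive for it, in which Cre is driven constitutively by the *Col6a1* promoter in mesenchymal cells and recombines floxed *Zeb1*, a transcription factor gene. Both groups were age-matched littermates of both sexes, no further treatment was labelled, and mouse ages were not given in the sources used here. Each plate was taken as a single mouse, since the number of plates equals that of the mice described for each genotype, although the labels name no mouse for a plate.

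IL-6, IL-11 and LIF are secreted proteins that signal through a shared receptor chain, gp130, the product of *Il6st*. IL-6 first binds its own receptor chain (*Il6ra*), IL-11 binds the product of *Il11ra1*, and LIF and oncostatin M recruit LIFR or OSMR beside gp130. The assembled receptors activate JAK kinases and STAT3, and STAT3 induces *Socs3*, which then dampens signaling from gp130. In tumors, IL-6 and LIF are known as products of inflammatory fibroblasts (iCAFs), and IL-11 of stromal cells in the injured and tumor-bearing colon.

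To show where the 3 cytokine genes lie and what their promoters read, the 250 bases before a RefSeq start were taken for each from the reference (GRCm38.p6, 5′ to 3′ on the strand of the gene). Capitals mark matches to an AP-1 motif (TGANTCA) or an NF-kB motif (GGGANNNNCC), searched on both strands together with a STAT motif (TTCNNNGAA) and a CRE motif (TGACGTCA). The *Lif* window holds 239 bases because 11 bases that overlap an annotated exon were left out. *Il11* has a second RefSeq start, whose window (chr7:4782858-4783107, minus strand) overlaps an annotated exon by 157 bases and held 0 matches to the 4 motifs, and its sequence is not printed. The windows were chr5:30012864-30013113 (plus strand) for *Il6*, chr7:4778142-4778391 (minus strand) for *Il11* and chr11:4257318-4257556 (plus strand) for *Lif*.
Il6: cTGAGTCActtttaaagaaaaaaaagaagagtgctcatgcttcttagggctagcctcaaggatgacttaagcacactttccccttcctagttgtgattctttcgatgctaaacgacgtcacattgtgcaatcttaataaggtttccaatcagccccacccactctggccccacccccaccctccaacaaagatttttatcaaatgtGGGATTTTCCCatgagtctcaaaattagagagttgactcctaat
Il11: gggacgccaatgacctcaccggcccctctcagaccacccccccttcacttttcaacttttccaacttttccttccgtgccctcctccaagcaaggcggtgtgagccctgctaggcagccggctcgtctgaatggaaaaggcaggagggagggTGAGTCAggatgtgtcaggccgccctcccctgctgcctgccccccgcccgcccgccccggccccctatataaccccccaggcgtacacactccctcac
Lif: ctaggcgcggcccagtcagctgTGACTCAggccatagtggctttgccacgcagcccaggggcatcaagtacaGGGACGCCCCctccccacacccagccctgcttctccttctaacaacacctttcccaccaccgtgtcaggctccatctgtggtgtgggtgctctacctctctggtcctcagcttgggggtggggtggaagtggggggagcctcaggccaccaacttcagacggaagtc
Each of the 3 printed windows held 1 AP-1 match, at 249 to 243 bases before the start of *Il6*, 98 to 92 bases before the start of *Il11* used here and 228 to 222 bases before that of *Lif*. An NF-kB match stood 178 to 169 bases before *Lif*, and 2 overlapping ones lay between 44 and 34 bases before *Il6*; the *Il11* window held none. No STAT or CRE match was found in them. Of 27025 promoters of the same length, 6.87% held the AP-1 motif, 17.3% the NF-kB motif, 7.18% the STAT motif and 1.62% the CRE motif. The genes themselves are protein-coding and lie at chr5:30013114-30019981 (*Il6*), chr7:4772373-4782859 (*Il11*) and chr11:4257557-4272514 (*Lif*) in GRCm38. The receptor genes lie at chr13:112464070-112510086 (*Il6st*), chr15:6813577-6874969 (*Osmr*) and chr4:41699989-41769474 (*Il11ra1*), and the signaling genes at chr11:100885098-100939540 (*Stat3*) and chr11:117966079-117970047 (*Socs3*).

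Of the wells, 1233 had between 100 and 6000 genes and under 10% mitochondrial transcripts, and 928 of these also had at most 1 transcript each of *Ptprc* (CD45) and *Epcam*. These CAF wells numbered 46 to 260 per plate, with a median of 1178 to 12099 transcripts per well. Wells were gated on lists of marker genes that contain none of the 8 members, and 746 fell into 6 gates: 163 iCAF-gated wells (*Pi16*, *Clec3b*, *Dpt* and others), 68 myCAF-gated (*Acta2*, *Tagln*, *Postn*), 86 telocyte-gated (*Foxl1*, *Bmp7*, *Wnt5a*), 128 Cxcl13/Grem1-gated, 113 mural-gated (pericytes and smooth muscle; *Rgs5*, *Notch3*, *Myh11*) and 188 neutrophil-gated (*S100a8*, *S100a9*). A gate is a range of a marker score, not a cell type, and 52 wells lay near a border between broad gates and 49 near one between fibroblast gates. The sort excludes CD45+ cells, yet neutrophil-gated wells made up 3.41 to 72.7% of CAF wells per plate, with the highest share on plate 3. Plate 3 had only 17 fibroblast-gated wells and plate 6 only 14, against 47 to 159 on the others. Levels are given in CPM, transcripts per 1000000 endogenous transcripts of the summed wells. Because the method tags the 3′ ends of transcripts, levels are compared between wells for 1 gene and never between genes.

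To ask which stromal cells carried the cytokine transcripts, wells were summed per plate and gate where a plate had at least 5 wells in the gate. *Il6* was high in mural, iCAF and Cxcl13/Grem1 wells and low in the rest. In mural-gated wells it stood at 523 CPM on plate 1, 780 on plate 2, 532 on plate 4 and 1444 on plate 5, a mean of 820 ± 433 (SD, n = 4). In iCAF-gated wells it was 600 on plate 1, 269 on plate 2, 187 on plate 3, 33.0 on plate 4 and 354 on plate 5 (289 ± 211, n = 5). Cxcl13/Grem1-gated wells had 267, 255, 147 and 197 CPM on plates 1, 2, 4 and 5 (217 ± 55.4, n = 4). These 3 gates overlapped in range. By contrast, myCAF-gated wells had 4.35, 2.31, 0 and 113 CPM on plates 1, 2, 4 and 5, and telocyte-gated wells had at most 16.3 CPM on any of 5 plates. The Cxcl13/Grem1 gate did not overlap the myCAF gate and was above it on 4 of 4 plates.

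Against the mean of the other fibroblast gates, with plate as a block, *Il6* was higher in iCAF-gated wells (log2 fold change 3.20, SE 0.43, edgeR adjusted p = 8.55e-07, 9.21-fold) and in Cxcl13/Grem1-gated wells (2.57, SE 0.45, edgeR adjusted p = 0.000399). It was also higher in mural-gated wells than in the 4 fibroblast gates (3.62, SE 0.38, edgeR adjusted p = 4.88e-09, 12.3-fold). The same edgeR model put *Il6* lower in telocyte-gated wells (-3.00, SE 0.71, adjusted p = 0.00305) and in myCAF-gated wells (-2.77, SE 0.71, adjusted p = 0.0186). The telocyte call did not pass without plate 5 or without the highest well of each sum, and the myCAF call did not pass without plate 1, 2 or 4 or without the plate block. The mural direction was seen on 4 of 4 plates (exact sign-flip test within plates, p = 0.125). The iCAF direction was seen on 5 of 5 (exact sign-flip test within plates, p = 0.0625). These are the smallest values these numbers of plates allow. On plate 3 the iCAF gate (5 wells) was compared with the telocyte gate (6 wells) alone, since the other fibroblast gates had too few wells. On plate 4 the iCAF value was 3 transcripts in 1 of 6 wells, a log2 difference of 0.34. It was below the Cxcl13/Grem1 gate there (33.0 against 147 CPM). The Cxcl13/Grem1 direction was seen on 3 of 4 plates, where the exact sign-flip test gave p = 0.25 (smallest possible 0.125). Of all genes tested, 22.3% were called for the iCAF gate, 3.94% for the myCAF gate, 12.6% for the telocyte gate, 4.42% for the Cxcl13/Grem1 gate and 27% for the mural gate. *Il6* was the only member called in all 5 of these contrasts. The contrasts share gates, so a high level in 1 fibroblast gate lowers the contrasts of the others, and the 5 calls are not independent. The members and marker lists were also chosen with earlier results of these data known.

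The split of *Il6* transcripts shows the same genes by share. Mural-gated wells, 12.2% of CAF wells, held 39.7% of the *Il6* transcripts. The iCAF gate held 38.5% with 17.6% of the wells, and the Cxcl13/Grem1 gate 19.4% with 13.8%. The myCAF gate held 0.497% and the telocyte gate 0.586%. *Il6* was found in 53.4% of iCAF wells, 55.5% of Cxcl13/Grem1 wells and 38.9% of mural wells, but in 5 of 68 myCAF wells, 6 of 86 telocyte wells and 1 of 188 neutrophil-gated wells. Median depth was 9551 to 15035 transcripts per well in the first 5 gates and 945 in the neutrophil gate. After thinning each well to 1000 barcode counts, *Il6* was found in 24.5% of mural wells (exact 95% interval 16.8 to 33.7), 21.5% of iCAF wells (15.4 to 28.6), 16.4% of Cxcl13/Grem1 wells (10.5 to 24.0), 1.54% of myCAF wells and none of 86 telocyte wells (upper bound 4.20). Thinning left out 3 of 113 mural wells and none of the iCAF, Cxcl13/Grem1 or telocyte wells. The highest single mural well, on plate 2, gave 77.7 of 881 *Il6* transcripts, and the highest 2, on plates 2 and 4, together gave 148. On plate 4 the mural gate had 78.6 *Il6* transcripts in 3 of 15 wells, most of them in 1 well. Intervals cover counting error only.

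Mural-gated wells also held transcripts of the 10 broad fibroblast markers, at a sum of 5488 to 25305 CPM per plate against 34785 to 68569 in the 4 fibroblast gates. On plate 5, which had the highest mural *Il6*, the fibroblast markers stood at 5893 CPM in mural wells with *Il6* and 4937 in those without. On plate 1 they were 27773 and 17005, and on plate 2 they were 24059 and 26682. The part of fibroblast transcripts in mural *Il6* was not tested beyond these values.

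**Figure D1:**
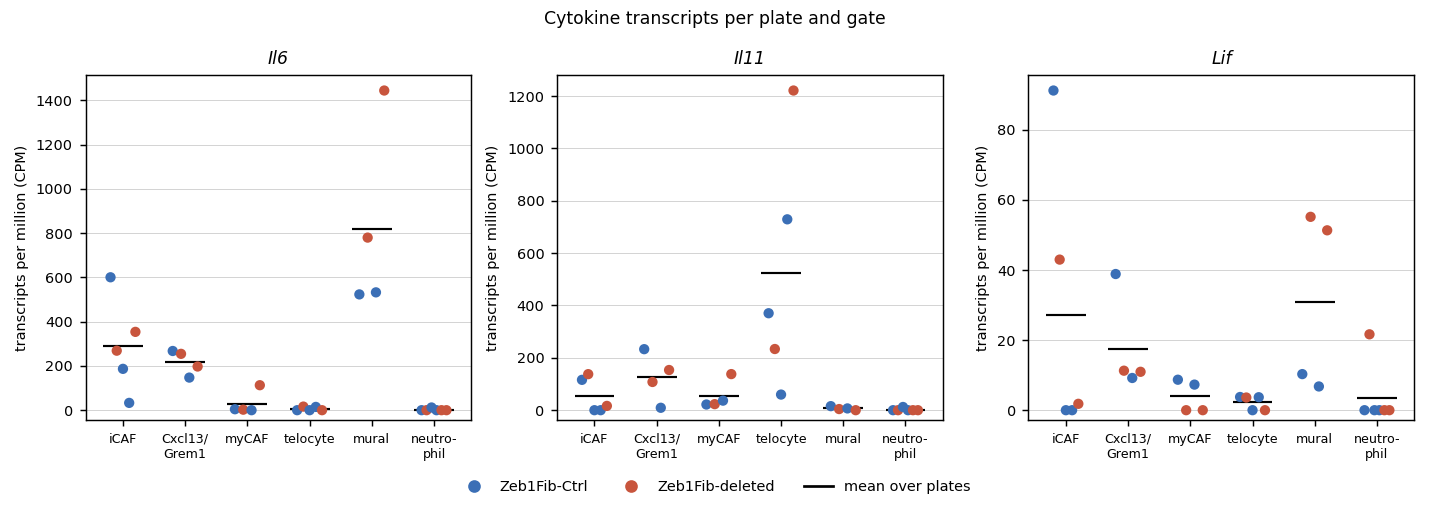
Transcripts per 1000000 (CPM, linear axes) of *Il6*, *Il11* and *Lif* in wells summed per plate and gate. Each point is 1 plate with at least 5 wells in the gate, colored by genotype, and bars are means over plates. *Il6* reached 1444 CPM in mural-gated wells. *Il11* reached 1221 CPM in telocyte-gated wells of plate 6, mostly from 1 of 6 wells.

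*Il11* followed another order. It was highest in telocyte-gated wells. The gate is named after *Foxl1*-marked fibroblasts that lie beneath the epithelium, but the position of these cells was not measured. *Il11* there stood at 370 CPM on plate 1, 234 on plate 2, 59.7 on plate 3, 729 on plate 4 and 1221 on plate 6 (523 ± 461, n = 5). Cxcl13/Grem1-gated wells had 233, 108, 9.19 and 153 CPM on plates 1, 2, 4 and 5. In iCAF-gated wells it was 116 on plate 1, 138 on plate 2, 16.4 on plate 5 and 0 on plates 3 and 4. The plates of the telocyte gate thus ranged widely, and the lowest overlapped the other fibroblast gates, while within plates the telocyte gate was above the Cxcl13/Grem1 gate on 3 of 3 plates that had both. Mural-gated wells were low, with 7 transcripts in 113 wells (5.85 CPM, exact Poisson interval 2.35 to 12.1).

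In the test, *Il11* was higher in telocyte-gated wells than in the other fibroblast gates (log2 fold change 2.49, SE 0.46, edgeR adjusted p = 0.00021, 5.62-fold) and lower in mural-gated wells (-4.12, SE 0.80, edgeR adjusted p = 0.00013). It was lower in myCAF-gated wells (-2.05, SE 0.60, edgeR adjusted p = 0.0451). That call did not pass without plate 1, 2, 3 or 4, by DESeq2 or without the plate block. *Il11* there stood at 21.7, 23.1, 36.5 and 138 CPM on plates 1, 2, 4 and 5. The myCAF mean of 54.8 CPM was close to the iCAF mean of 54.0. Within plates the myCAF gate was lower except on plate 5 (exact sign-flip test, p = 0.375). The exact sign-flip test gave p = 0.125, the smallest possible, for the telocyte gate (higher on 4 of 4 plates) and the mural gate (0 of 4). On plate 3 the telocyte gate was compared with the iCAF gate alone. The iCAF (-0.71, SE 0.48, edgeR adjusted p = 0.34) and Cxcl13/Grem1 (0.26, SE 0.46, adjusted p = 0.941) gates did not pass. *Il6* and *Il11* thus went in opposite directions in telocyte-gated and in mural-gated wells, each past the threshold.

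Few wells carried most of the *Il11*. The telocyte gate held 41.3% of *Il11* transcripts in 9.27% of CAF wells, and 45.3% of its wells had at least 1. A single well on plate 4 gave 159 of the gate's 567 transcripts (28.1%). The highest 2 wells, 1 on plate 4 and 1 on plate 6, together gave 292 (51.5%). The gate had 197 *Il11* transcripts on plate 4 and 136 on plate 6, so each of these plate values rested mostly on 1 well. Without the highest well the pooled level fell from 424 to 305 CPM. The telocyte call held with the highest well of every sum set to 0, and its log2 fold change ranged from 1.84 to 2.94 over the alternatives that kept all plates. After thinning, *Il11* was found in 12.8% of telocyte wells (exact 95% interval 6.56 to 21.7), 8.59% of Cxcl13/Grem1 wells (4.37 to 14.9), 3.07% of iCAF wells (1.003 to 7.01) and none of 110 mural wells (upper bound 3.30), so the telocyte and Cxcl13/Grem1 intervals overlap.

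*Lif* was sparse, with 194 transcripts in 59 CAF wells. The iCAF gate held 51.0% of them, at 91.2 CPM on plate 1, 43.0 on plate 2, 0 on plates 3 and 4 and 1.82 on plate 5. Mural-gated wells held 23.2%, at 10.3, 55.2, 6.77 and 51.3 CPM on plates 1, 2, 4 and 5, and Cxcl13/Grem1-gated wells 19.1%, at 38.9, 11.3, 9.19 and 10.96. The telocyte and myCAF gates held 4 and 3 transcripts. *Lif* did not pass the filter on low counts. The exact two-sided sign-flip test within plates gave p = 0.5 for the iCAF gate (higher on 2 of 5 plates) and p = 0.375 for the mural gate (3 of 4), while edgeR without the filter gave log2 fold changes of 2.75 (SE 0.44, adjusted p = 1.58e-08; 9.67% of all genes called) and 1.78 (SE 0.45, adjusted p = 0.00117; 10.9% called). The 2 tests weigh plates differently, and plate 1 alone had 64 of the 163 iCAF wells. Single wells gave 26.1 of 45.1 *Lif* transcripts in the mural gate and 20.1 of 37.1 in the Cxcl13/Grem1 gate.

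Within gates the cytokines were partly found in the same wells. Of 24 iCAF wells with *Lif*, 18 also had *Il6* (75%), where 53.4% of all iCAF wells did. Of 47 Cxcl13/Grem1 wells with *Il11*, 27 had *Il6* (57.4% against 55.5% of all wells in the gate), and of 34 iCAF wells with *Il11*, 16 did (47.1%). Wells with more transcripts detect more genes, so these counts are descriptions. Across the 28 sums per plate and gate, with 6792 genes of at least 20 CPM, patterns most like *Il6* (Pearson r of log2(CPM + 10), across sums that share plates) included those of *C1qtnf7* (0.86), *Tgfb3* (0.86), *Errfi1* (0.83) and *Slc25a25* (0.82). Those most like *Il11* were *Bmp2* (0.82), *Pde10a* (0.79), *Tmem158* (0.77), *Nans* (0.76) and *Nrg1* (0.76), the last being one of the telocyte gate markers. Those most like *Lif* were *Il6* itself (0.65), *Pim3* (0.63), *Adamts1* (0.61), *Slc25a25* (0.61) and *Rassf1* (0.60).

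**Figure D2:**
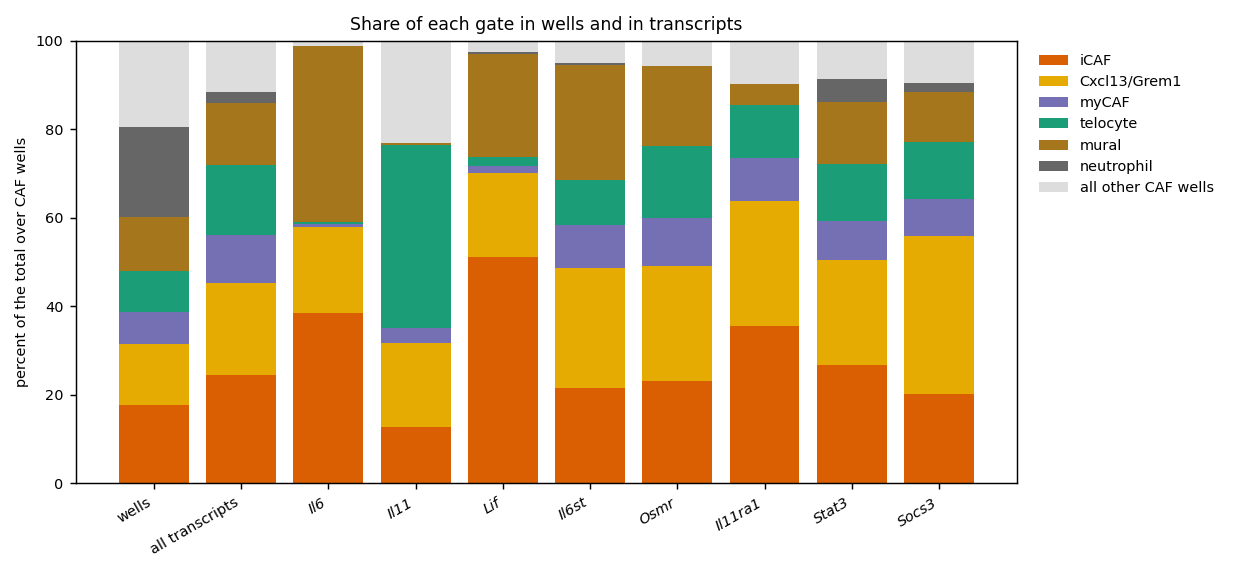
Stacked bars of the percent of all CAF wells, of all their transcripts and of each member's transcripts that fell in each gate. The iCAF, Cxcl13/Grem1 and mural gates filled nearly all of the *Il6* bar, whereas the telocyte gate held 41.3% of *Il11* and 14.5% of *Il11* lay in ungated wells.

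Outside the 6 gates, *Il11* was found in large amounts in 3 wells. An ungated well on plate 5 had 114 *Il11* transcripts, an ungated well on plate 4 had 85.9, and an epithelial-gated well on plate 4 had 95.1. These wells had transcripts of 8 or 9 of the 10 fibroblast markers and of 4 to 6 of the 8 telocyte markers, and of 1 to 3 of the 10 epithelial markers. They were not moved into a gate.

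The receptor genes were spread more evenly over the fibroblast gates than the cytokines. *Il6st* (gp130) was found in 78.8 to 95.3% of wells of the mural and fibroblast gates. Its level was 510, 529, 577 and 334 CPM in mural-gated wells on plates 1, 2, 4 and 5 (488 ± 106, n = 4) and 428, 301, 432 and 395 in Cxcl13/Grem1-gated wells (389 ± 61.3, n = 4). The myCAF, iCAF and telocyte gates had means of 250, 217 and 158 CPM. Within plates *Il6st* was higher in the iCAF gate on 0 of 5 plates (exact sign-flip test, p = 0.0625, the smallest possible). The edgeR difference there was small and did not pass (-0.14, SE 0.21, adjusted p = 0.959). The Cxcl13/Grem1 gate lay above the myCAF gate in every plate, with no overlap. *Il6st* was higher in mural-gated wells (log2 fold change 0.88, SE 0.21, edgeR adjusted p = 0.00122) and in Cxcl13/Grem1-gated wells (0.87, SE 0.22, adjusted p = 0.0138), the latter call being lost without plate 1 or 4, without the filter and with at least 10 wells per sum.

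*Osmr*, the receptor chain for oncostatin M, differed little between the stromal gates. Its mean was 268 CPM in Cxcl13/Grem1-gated wells, 239 in mural, 205 in telocyte, 192 in myCAF and 154 in iCAF-gated wells, each overlapping its neighbors in range. None of the 5 contrasts passed, and the lowest adjusted p was 0.205 for the iCAF gate (log2 fold change -0.40, SE 0.21). *Il11ra1*, the receptor chain for IL-11, was low, with means of 29.3 CPM in iCAF, 27.1 in Cxcl13/Grem1, 16.2 in telocyte, 14.3 in myCAF and 9.20 in mural-gated wells, again with overlapping neighbors. It was found in 24.5% of iCAF wells and 15.1% of telocyte wells. *Il11ra1* did not pass the filter, and the exact sign-flip p was at least 0.25 in each of these 5 gates. The mouse genome holds near-identical copies of this gene among which 3′ reads could have been divided, so its values are uncertain.

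*Stat3* was found in at least 83.2% of wells in each stromal gate, with means of 266 to 386 CPM, and no stromal contrast passed (adjusted p at least 0.426). *Socs3* was highest in Cxcl13/Grem1-gated wells, at 1167, 1433, 765 and 1032 CPM on plates 1, 2, 4 and 5 (1099 ± 279, n = 4), against means of 553 to 614 in the other 4 stromal gates. It was above the myCAF gate on 4 of 4 plates although the ranges overlap. The difference from the other fibroblast gates was 0.998 on the log2 scale (SE 0.25, edgeR adjusted p = 0.0153), and the call was lost without plate 1, 2 or 4 and without the plate block (adjusted p = 0.158). Of the 6 members tested, *Il6*, *Il6st* and *Socs3* were called higher in this gate, against 4.42% of all genes called.

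**Figure D3:**
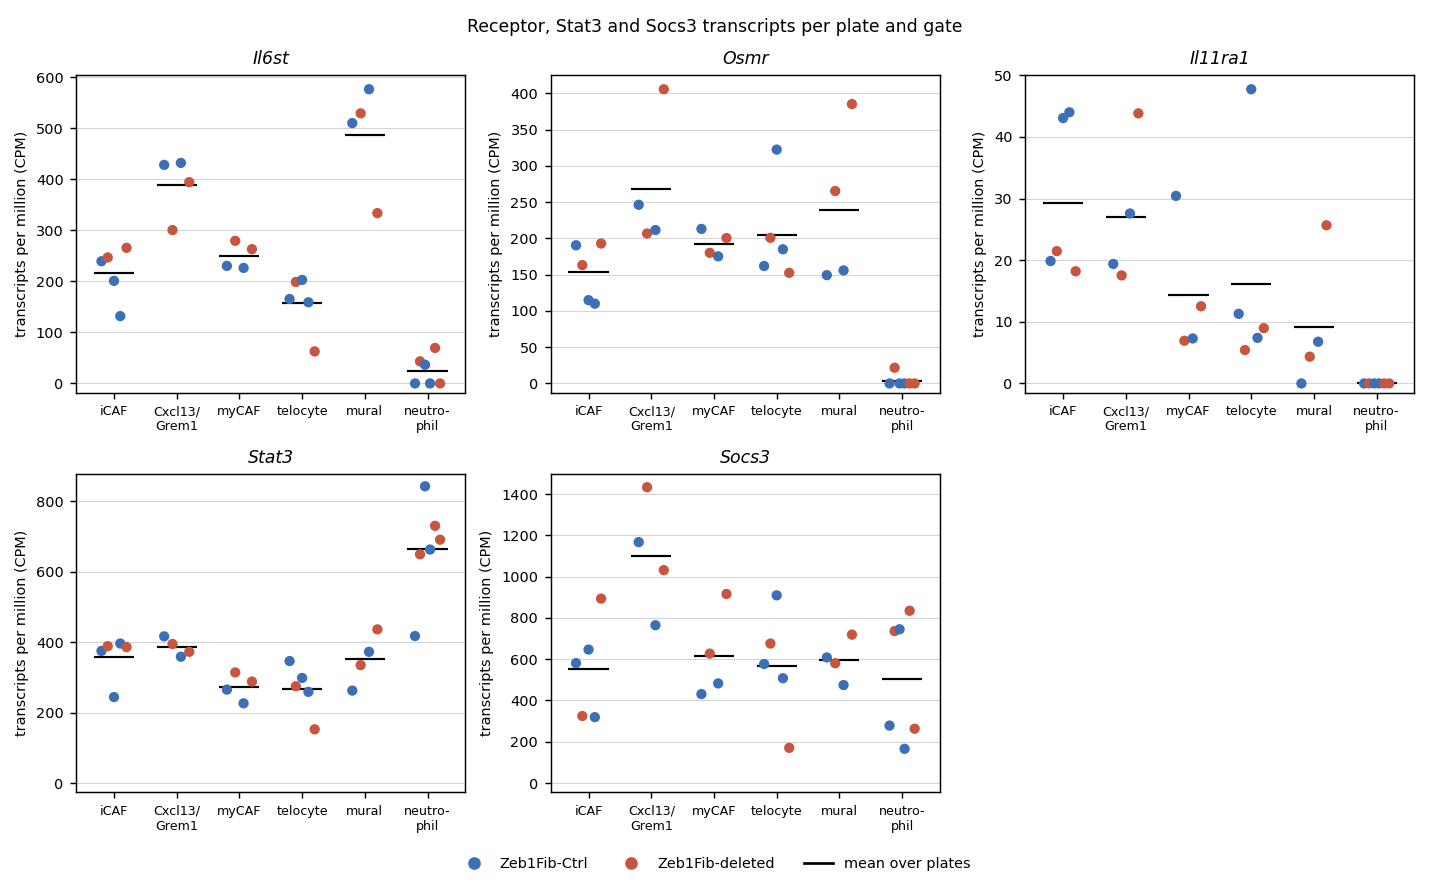
Transcripts per 1000000 (CPM, linear axes) of the receptor genes *Il6st*, *Osmr* and *Il11ra1* and of *Stat3* and *Socs3* in wells summed per plate and gate. Points are plates with at least 5 wells, colored by genotype, and bars are means; *Il6st* and *Osmr* were near 0 in neutrophil-gated wells, where *Stat3* was highest at a mean of 666 CPM.

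Neutrophil-gated wells had few or no transcripts of the 6 cytokine and receptor members but did have *Stat3* and *Socs3*. *Il6*, *Il11*, *Lif* and *Osmr* each had 1 transcript in 188 wells (4.84 CPM, exact Poisson interval 0.123 to 27.0), *Il6st* had 7 and *Il11ra1* none, for which the exact Poisson interval reaches 17.9 CPM (a floor of 3 counts is 14.5 CPM). *Stat3* stood at 418, 650, 843, 663, 730 and 691 CPM on plates 1 to 6 (666 ± 140, n = 6), above the highest Cxcl13/Grem1 value (417 CPM) on every plate. On plate 1 this margin was slight, and the value rested on 3 transcripts in 7 wells. *Stat3* was higher than in the fibroblast gates by 1.07 on the log2 scale (SE 0.24, edgeR adjusted p = 0.000325), whereas *Il6st* (-2.71, SE 0.42, edgeR adjusted p = 1.81e-06), *Osmr* (-5.23, SE 0.66, edgeR adjusted p = 4.78e-08) and *Il11* (-4.38, SE 1.46, edgeR adjusted p = 0.00904) were lower. The fitted values of *Osmr* and *Il11* rest on 1 transcript each and depend on the prior count, and the *Il11* call was lost without plate 6. In this contrast the median of all genes was -1.11 and 72% of genes were called, so *Stat3* stood further above the typical gene, and *Il6st* less far below it, than these values read. *Il6* did not pass (edgeR adjusted p = 0.0654). The *Stat3* call was lost with at least 10 wells per sum. *Socs3* had 504 ± 298 CPM (n = 6) and did not pass (-0.30, edgeR adjusted p = 0.326).

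Since *Socs3* is a known STAT3 target and *Il6* was split within gates, wells with and without *Il6* were compared within the same plate and gate, where each side had at least 5 wells. *Socs3* was higher in the wells with *Il6* in 8 of 8 pairs, by 1.33 to 3.37 times. In iCAF wells it was 705 against 341 CPM on plate 1, 469 against 169 on plate 2 and 1022 against 752 on plate 5. In Cxcl13/Grem1 wells it was 1647 against 653 on plate 1 and 1721 against 960 on plate 2. In mural wells it was 1244 against 369, 686 against 464 and 803 against 605 on plates 1, 2 and 5. *Osmr* was higher in the wells with *Il6* in 7 of 8 pairs, by 2.03 to 2.52 times in the 3 iCAF pairs and by 2.11 to 2.35 times in both Cxcl13/Grem1 pairs, the exception being mural wells on plate 1 (94.0 against 170 CPM). *Stat3* was higher in 7 of 8 pairs by smaller ratios (0.933 to 1.99 over all pairs), and *Il6st* in 4 of 8. The 8 pairs come from 3 plates, over which the smallest two-sided p is 0.25, so no test was made. Median depth in wells with *Il6* was 0.86 to 2.23 times that in wells without, the highest in mural wells on plate 5, and summed fibroblast markers were 0.857 to 0.944 times as high in the iCAF and Cxcl13/Grem1 pairs. Summed pericyte markers were higher in the wells with *Il6* in 7 of 8 pairs, by 1.12 to 2.88 times in iCAF wells, 1.53 to 1.68 times in Cxcl13/Grem1 wells and 0.950 to 3.07 times in mural wells. In iCAF wells these sums were 175 against 141 CPM on plate 1, 269 against 93.6 on plate 2 and 90.2 against 80.4 on plate 5. Summed mural markers were also higher in 7 of 8 pairs (0.940 to 2.83 times over all pairs). The sum of *Myh11* and *Des*, also mural markers, was higher in 4 of 8 pairs. It was lower in the 3 mural pairs, at 0.394 to 0.950 times. The part of depth and of cell mixture in these differences was not tested beyond these values.

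The same comparison for *Il11* gave the opposite direction for *Socs3*. It was lower in wells with *Il11* in 8 of 8 pairs from 4 plates, at 0.433 to 0.925 times the level in wells without. In telocyte wells it was 497 against 708 CPM on plate 1, 618 against 754 on plate 2 and 398 against 584 on plate 4, and in iCAF wells it was 369 against 692, 265 against 358 and 422 against 974.6 on plates 1, 2 and 5. In Cxcl13/Grem1 wells it was 1112 against 1203 on plate 1 and 1217 against 1609 on plate 2. *Osmr* was lower in wells with *Il11* in 5 of 8 pairs, among them the 3 iCAF pairs. *Stat3* was higher in wells with *Il11* in 6 of 8 pairs (0.813 to 1.33 times over all pairs), the same direction as for *Il6*. Summed pericyte markers were higher in wells with *Il11* in 6 of 8 pairs (0.436 to 3.70 times over all pairs), so this was not particular to wells with *Il6*. In Cxcl13/Grem1 wells they were 1.69 to 2.01 times as high. Depth ratios ranged from 0.832 to 1.61.

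**Figure D4:**
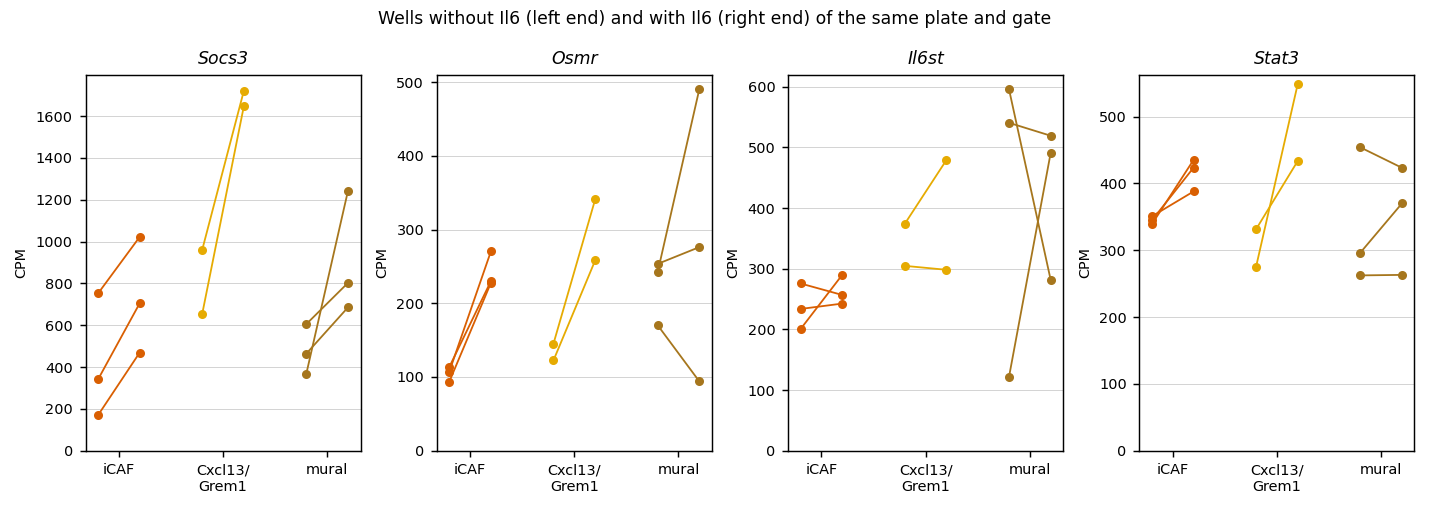
CPM of *Socs3*, *Osmr*, *Il6st* and *Stat3* in wells without *Il6* (left end of each line) and with *Il6* (right end) of the same plate, for the iCAF, Cxcl13/Grem1 and mural gates. Each line is 1 plate with at least 5 wells on each side; all 8 *Socs3* lines rise, as do 7 of 8 *Osmr* lines.

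The 37 other listed genes of the pathway were counted by list. Among the other ligands, 6 of 8 genes were listed, and *Osm*, which encodes oncostatin M, was found almost only in neutrophil-gated wells: 62 transcripts, 93.9% of those in CAF wells, at 281 ± 78.4 CPM (n = 6). *Ebi3*, a subunit of IL-27 and IL-35, had 22 of its transcripts there. These are given as values only, since both genes passed the filter on low counts through the neutrophil sums. Among the other receptors only *Lifr*, the LIF receptor chain, was tested in the gates. *Lifr* was lower in iCAF-gated wells (log2 fold change -2.57, SE 0.30, edgeR adjusted p = 4.9e-08) and in mural-gated wells (-1.55, adjusted p = 0.000424), the gates with most *Lif*, and higher in myCAF-gated (1.29, adjusted p = 0.00119) and telocyte-gated wells (1.10, adjusted p = 0.00236). *Il6ra*, the IL-6 binding chain, did not pass the filter and had means of 24.6 to 41.2 CPM in the myCAF, iCAF, telocyte and Cxcl13/Grem1 gates, 12.4 in the mural gate and 105 ± 105 (n = 6; 21 transcripts) in the neutrophil gate.

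Of the 11 kinases, STATs and regulators, 5 were tested in the gates. *Socs2*, another SOCS inhibitor, was lower in iCAF-gated wells (log2 fold change -0.88, edgeR adjusted p = 0.00659), and *Jak2*, a JAK kinase, was higher in mural-gated wells (1.13, adjusted p = 0.00545). Of the 15 STAT3 target genes, 14 were tested. In iCAF-gated wells 5 were higher and none lower (*Myc* 3.24, *Lbp* 2.64, *Hp* 1.97, *Timp1* 1.26 and *Mcl1* 0.86), with a list median of 0.51 against -0.01 over all genes and 22.3% of all genes called. The member *Socs3*, also a STAT3 target but not in this list, went the other way in the iCAF gate without passing (-0.49, SE 0.26, edgeR adjusted p = 0.196). It was higher there on 0 of 5 plates (exact sign-flip test, p = 0.0625, the smallest possible). In telocyte-gated wells *Saa3* (2.53) and *Lcn2* (2.56), both acute-phase genes, were higher and *Myc* (-3.81), *Mcl1* (-1.02) and *Lbp* (-1.17) lower, with 12.6% of all genes called. In Cxcl13/Grem1-gated wells *Junb* (0.84) was higher and *Saa3* (-3.66) and *Hp* (-4.02) lower, with 4.42% of all genes called. Mural-gated wells had 2 higher and 3 lower (27% of all genes called), and no target passed in myCAF-gated wells (3.94%). In neutrophil-gated wells 9 were higher and 3 lower, against a median of -1.11 over all genes and 72% called. *Lcn2*, *Hp* and *Mcl1*, which were among the 9, are also well known in neutrophils.

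To ask whether loss of *Zeb1* in fibroblasts went with a change in the family, plates of the 2 genotypes were compared. *Zeb1* itself stood at 105, 86.5 and 81.9 CPM in CAF wells of the Zeb1Fib-Ctrl plates and at 55.0, 52.1 and 54.6 CPM in those of the Zeb1Fib-deleted plates, with no overlap (91.2 ± 12.3 against 53.9 ± 1.56, n = 3 each, exact permutation p = 0.1, the smallest this design allows). No member passed the edgeR test between genotypes, and *Zeb1* did not pass it either. Its log2 fold change was -0.81 (SE 0.22, edgeR adjusted p = 0.9998) in CAF wells and -0.70 (SE 0.22, adjusted p = 0.9998) in fibroblast-gated wells. In CAF wells *Il6* was 340, 126 and 108 CPM on Zeb1Fib-Ctrl plates and 286, 255 and 101 on Zeb1Fib-deleted plates, and *Il11* was 155, 68.3 and 423 against 96.6, 108 and 397. Both groups spanned the same range for both cytokines. *Lif* was 46.5, 0 and 8.51 against 22.8, 4.998 and 0. *Socs3* was 746, 683 and 492 against 801, 784 and 532. For all 8 members the groups overlapped, both in CAF wells and in the 494 fibroblast-gated wells, and the exact two-sided permutation p was at least 0.4. The share of all genes whose groups overlap was not determined, so this overlap is a description and not a result about the family.

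In edgeR, 0 of 9747 genes tested in CAF wells and 0 of 8194 in fibroblast-gated wells were called (0% each), with 106 and 127 genes at an unadjusted p under 0.05. DESeq2 called 0 and 1, the latter being *Procr* (lower), which is no member and was named after its values were seen. The 7 members that passed the filter had log2 fold changes from -0.29 (*Il11ra1*) to 0.10 (*Il6*) in CAF wells, with SEs of 0.26 to 0.71. In simulated data of this design, 80.7% of 171 genes changed 4-fold were recovered and none of 169 genes changed 2-fold. The simulation used a dispersion of 0.1 for every gene, so these shares need not hold for members that vary more between plates, such as *Il6* and *Il11*. The fold change of *Il6* in fibroblast-gated wells turned from -0.06 to 1.41 without plate 1, and that of *Il11* from 0.16 to -1.25 without plate 6. Leaving out plate 6 also leaves plates of 1 flow cell only. The share of neutrophil-gated wells, 3.41 to 72.7% in Zeb1Fib-Ctrl and 14.6 to 41.3% in Zeb1Fib-deleted plates, moves every CAF level, and fewer cells of a type cannot be told apart there from less RNA per cell. Within the mural gate, *Il6* was 523 and 532 CPM on the Zeb1Fib-Ctrl plates and 780 and 1444 on the Zeb1Fib-deleted plates, and with 2 plates each no test was made. Most of the 532 CPM on plate 4 came from 1 well. Plates 3 (Zeb1Fib-Ctrl, 661 CPM) and 6 (Zeb1Fib-deleted, 528 CPM) had 3 mural wells each, under the minimum of 5, and with them the genotypes overlap.

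**Figure D5:**
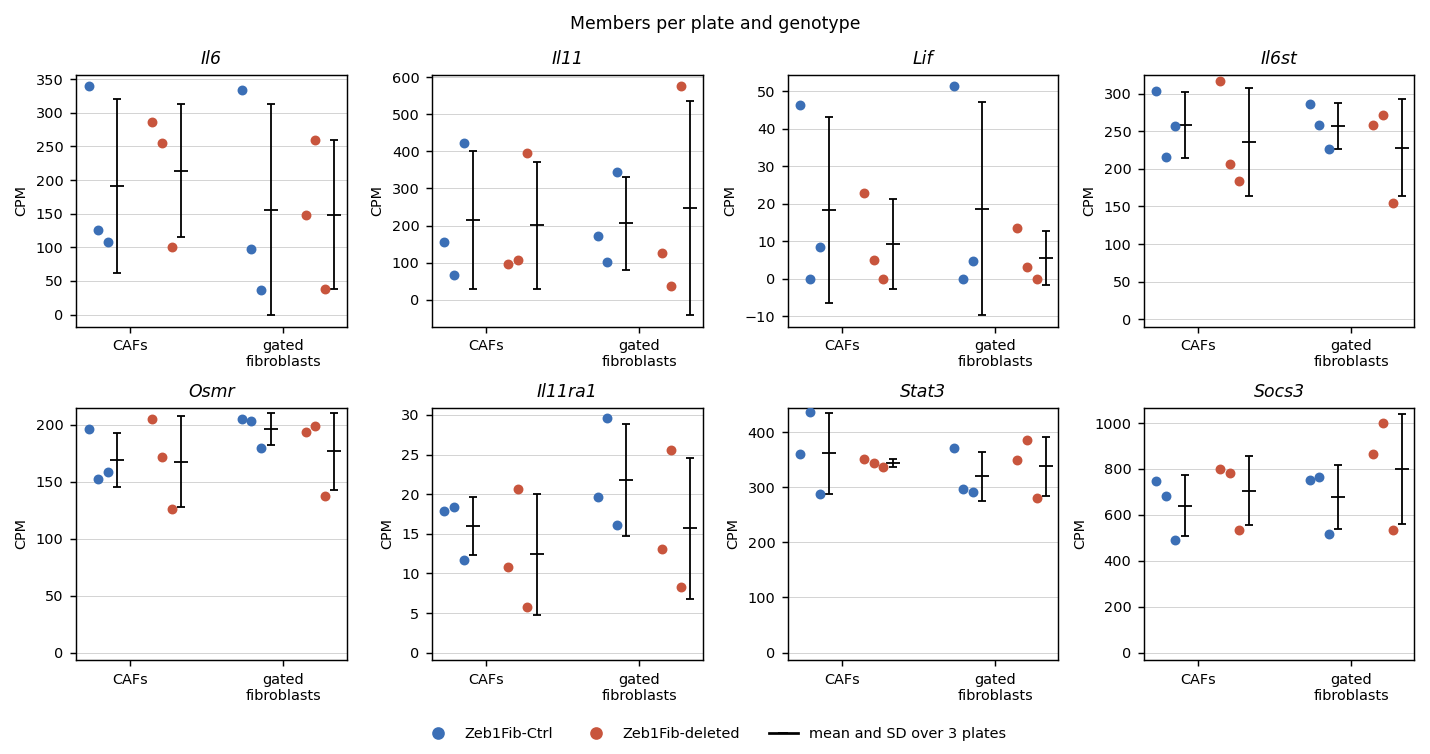
CPM (linear axes) of the 8 members per plate in all CAF wells and in fibroblast-gated wells, by genotype. Points are plates, and the mark beside each group gives the mean and SD over 3 plates; the genotypes overlap in every panel.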

How the data were processed

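Colon tumor cells sorted as EPCAM-, CD45- and CD31- were sequenced on 6 SORT-seq plates, 3 per genotype. Per the labels and the study's methods, the sequencing provider took the well from read 1, mapped read 2 with BWA against GRCm38 transcripts and counted genes with its own script; the submitters' processing notes also name Cell Ranger 2.1.1. The deposited files hold counts of unique barcodes per gene and well, and estimated counts of transcripts, which equal the barcode counts where these are low and exceed them where they are high, as a correction for molecules sharing a barcode gives. Transcript counts were used, without ERCC spike-ins (7.85 to 18.6% of transcripts per plate), and were rounded after summing. Genes are whole rows of the 3′ tag counts, and whether reads were counted by strand was not given in the sources used here.

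Wells with 100 to 6000 genes and under 10% mitochondrial transcripts were kept, those where *Ptprc* or *Epcam* exceeded 1 transcript were left out, and the rest were gated by the mean scaled level of marker lists (above 0.1, with at least 2 markers found). Doublets were not called. Sums of at least 5 wells per plate and gate were fitted in edgeR 4.0.16 (R 4.3.3) by the quasi-likelihood test with TMM, filterByExpr, plate as a block for gates and genotype alone between genotypes, at a Benjamini-Hochberg adjusted p of 0.05 over all genes tested. The SE of a log2 fold change was taken from its F statistic. Each gate was compared with the mean log level of the other fibroblast gates, and mural and neutrophil gates with all 4. Single values were tested by exact two-sided permutation over plates or by sign flips of log2(CPM + 10) within plates. DESeq2 1.42.0 and the other alternatives are in the closing section. On simulated data, 99.3% of 139 genes changed 4-fold and 33.1% of 118 changed 2-fold were recovered in the iCAF contrast.

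The 8 members and the marker and pathway lists were chosen with earlier results of these data known. All members were named with values; other pathway genes were named where they passed a test or had the highest levels of their list, and up to 5 genes were named for likeness to each cytokine. Some genes that these rules name are not reported here. *Cntf*, *Il27* and *Il11ra2* of the pathway lists were not analysed here. Promoter sequences are from RefSeq (GRCm38.p6), and gene coordinates from the reference annotation of the same build. Plate 6 was sequenced on another flow cell than the rest.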

Additional observations from a re-analysis of the deposited data

Results flagged for a closer look

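In 47 groups of 4 to 6 plates, 10 had a plate far from the others, where chance flags about 1 in 20 groups of continuous values. Of the 10, 4 are 1 transcript against none on the other plates. In myCAF-gated wells, plate 5, with 8 wells, stood apart for *Il6* (113 CPM, the next at 4.35) and for *Il11* (138 CPM, the next at 36.5), on 9 and 11 transcripts. In Cxcl13/Grem1-gated wells, plate 1 stood apart for *Lif* (38.9 CPM, the next at 11.3), 20.1 of whose 26.1 transcripts came from 1 well. Plate 3 was high for *Osmr* (322 CPM) and *Il11ra1* (47.7 CPM) in 6 telocyte-gated wells and low for *Stat3* (244 CPM) in 5 iCAF-gated wells. In neutrophil-gated wells the plates that stood apart had 1 transcript where the others had none: *Il6* and *Il11* on plate 3 (12.2 CPM each) and *Lif* and *Osmr* on plate 2 (21.7 CPM each).

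Among 40 contrasts of a gate with the other fibroblast gates, *Osmr* went opposite ways in the 2 genotypes in a pair of gates, on the log2(CPM + 10) scale. In the mural gate it was 0.24 lower in Zeb1Fib-Ctrl and 0.54 higher in Zeb1Fib-deleted plates, a difference of 0.79. In the myCAF gate it was 0.10 higher in Zeb1Fib-Ctrl and 0.27 lower in Zeb1Fib-deleted plates, a difference of -0.37. With 2 plates per genotype these differences were not tested, and how many such flags chance gives among the 40 contrasts was not determined.

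Wells that entered no contrast also held cytokine transcripts. *Il11* had 199 transcripts in 59 ungated wells, all in 2 wells, and 97.1 transcripts in 59 epithelial-gated wells, 95.1 of them in 1 well. *Lif* had 33.0 transcripts in 7 of the 305 wells left out for *Ptprc* or *Epcam*, 15.03 of them in 1 well of plate 1.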

How the results depend on the processing

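The calls of *Il6* in the iCAF (log2 fold change 2.43 to 4.36 over all alternatives), Cxcl13/Grem1 (2.399 to 3.42) and mural gates (3.49 to 4.20), of *Il11* in the telocyte (1.68 to 3.14) and mural gates (-4.60 to -3.77), of *Il6st* in the mural and neutrophil gates and of *Osmr* in the neutrophil gate held under every alternative run. Lost calls, beside those named in the report, were *Il6* in the telocyte gate with a gate border of 0.3 or at least 10 wells per sum, and *Il11* in the neutrophil gate with a gate border of 0.3; the cause was not tested. The alternative without the highest well of each sum was chosen after seeing the data.

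Without the filter on low counts, 16306 genes were tested and the genes called numbered 1576 (iCAF), 303 (myCAF), 854 (telocyte), 343 (Cxcl13/Grem1), 1785 (mural) and 4903 (neutrophil), against 882, 156, 499, 175, 1070 and 2848. DESeq2 called 1 gene between genotypes in fibroblast-gated wells. Without the plate (replicate) block, the myCAF gate had 95 calls. Leaving out a plate gave 42 to 169 calls for the myCAF gate, 312 to 612 for the telocyte gate, 58 to 186 for the Cxcl13/Grem1 gate and 671 to 1146 for the mural gate, with the lowest number without plate 1 for the first 3 and without plate 2 for the mural gate, which also took the myCAF gate to 87 and the telocyte gate to 322.

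Signs that turned belong to values that passed no test. Between genotypes, leaving out a plate gave log2 fold changes of -0.22 to 0.87 (*Il6*), -1.04 to 0.65 (*Il11*), -0.17 to 0.13 (*Osmr*), -0.32 to 0.066 (*Stat3*) and -0.12 to 0.27 (*Socs3*) in CAF wells. In fibroblast-gated wells it gave -0.71 to 1.41 (*Il6*), -1.25 to 0.67 (*Il11*), -0.30 to 0.10 (*Il6st*), -0.23 to 0.060 (*Osmr*), -0.78 to 0.017 (*Il11ra1*) and -0.039 to 0.29 (*Stat3*). *Socs3* turned to -0.17 in CAF wells with mitochondrial genes taken as those named mt- and to -0.061 with all wells, and *Il11* in fibroblast-gated wells to -0.15 with genes named mt-. Between gates, leaving out a plate gave -0.083 to 0.31 (*Osmr*, telocyte), -0.28 to 0.69 (*Il11*, Cxcl13/Grem1), -0.10 to 0.20 (*Osmr*, mural) and -0.093 to 0.14 (*Stat3*, mural). With at least 10 wells per sum, *Il11* (0.42) and *Il6st* (0.21) in the iCAF gate, *Osmr* in the telocyte gate (-0.10), *Stat3* in the mural gate (-0.10) and *Lif* in the neutrophil gate (0.83) turned. DESeq2 turned *Il6st* in the myCAF gate (0.011), *Il11* in the Cxcl13/Grem1 gate (-0.10) and *Stat3* in the mural gate (-0.038). Without the plate (replicate) block *Il6st* in the myCAF gate (0.019) and *Osmr* in the telocyte gate (-0.10) turned, without the filter *Stat3* in the mural gate (-0.029), with a gate border of 0.3 the same (-0.078), and without the highest wells *Osmr* in the mural gate (-0.020).

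No paired analysis was possible because the replicate numbers of the 2 genotypes follow only the order of the plates, and nothing pairs a Zeb1Fib-Ctrl with a Zeb1Fib-deleted plate. *Lif* and *Il11ra1* did not pass the filter on low counts in the gates, and in neutrophil-gated wells 3 counts correspond to 14.5 CPM.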
